A study of Mus musculus with 12 samples.

Results

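Cish, Cbl, Cblb, Asb2, Birc2, Birc3 and Cyld encode proteins linked to ubiquitin, several of which are known as brakes on lymphocyte signalling. They were chosen by name, and all 7 were found among the 5545 genes with complete rows in the table, which stop at Cyp26b1 in alphabetical order. Later symbols were not analysed here. Libraries came from liver NK cells, gated as lineage-negative cells with NK1.1 and CD49b but without CD49a, and liver ILC1, a tissue-resident relative gated with NK1.1 and CD49a but without CD49b, both sorted from each of 6 mice of the strain C57BL/6 (female C57BL/6J in the methods). From weaning, the 3 lean mice ate RM1 expanded diet and the 3 obese mice ate an obesogenic diet (code 824018, 45% AFE fat) with condensed milk added, in both cases for 12 weeks, so that there were 12 libraries in 4 groups of 3 and each library was 1 animal. Animals are numbered 25, 26 and 27 within each diet, and the same number in lean and obese mice denotes different animals. The obese mice differ from the lean mice in diet and in body weight, which cannot be told apart.

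Ubiquitin is a small protein that ligases attach to other proteins, marking them for degradation or changing what they bind, and that deubiquitinases remove. Cish encodes CIS, a SOCS-box protein that is induced by STAT5 downstream of cytokine receptors and damps the signal of those receptors, and in NK cells it is known as a checkpoint on the response to interleukin-15. Cbl and Cblb encode RING-type ligases that limit signalling from antigen and other activating receptors. Asb2 encodes an ankyrin repeat and SOCS-box protein, the part of a cullin-RING ligase that selects its substrates, of which filamins are the best known. Birc2 and Birc3 encode the ligases cIAP1 and cIAP2, which act at TNF receptors and restrain the alternative NF-κB pathway, and Cyld encodes a deubiquitinase that removes chains from proteins of the NF-κB pathway.

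Over all 12 libraries Asb2 and Cish separated ILC1 from NK cells, and the other 5 genes overlapped between them. In lean mice the mean normalized count (the authors' counts divided by a factor per library) of Asb2 was 44.9 times and that of Cish 6.52 times higher in ILC1 than in NK cells, and both genes were higher in ILC1 than in NK cells of the same animal in 6 of 6 mice. Between lean and obese mice none of the 7 genes passed the test in either cell type. The group means of Asb2 nevertheless stood 2.91-fold higher in obese than in lean NK cells and 1.99-fold lower in obese than in lean ILC1, without overlap between the libraries in either case.

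The 250 bases upstream of the annotated start are shown for the gene with the largest difference between the cell types, Asb2, and for Cyld, the only member in whose windows the NF-κB motif was found. Sequences were taken from RefSeq (GRCm38.p6), in which all 7 members matched with 9 windows in all, and are written 5′ to 3′ on the strand of the gene. Capitals mark the NF-κB motif, which begins 155 bases upstream of the Cyld start. Asb2 has 2 annotated starts with a window each, and the one shown, chr12:103356002-103356251 on the minus strand, lies just upstream of the whole gene; the Cyld window is chr8:88696778-88697027 on the plus strand.
Asb2: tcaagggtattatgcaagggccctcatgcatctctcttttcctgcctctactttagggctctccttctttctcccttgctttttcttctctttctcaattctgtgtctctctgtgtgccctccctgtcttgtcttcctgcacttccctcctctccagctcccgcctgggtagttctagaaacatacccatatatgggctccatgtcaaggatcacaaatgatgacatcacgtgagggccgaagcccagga
Cyld: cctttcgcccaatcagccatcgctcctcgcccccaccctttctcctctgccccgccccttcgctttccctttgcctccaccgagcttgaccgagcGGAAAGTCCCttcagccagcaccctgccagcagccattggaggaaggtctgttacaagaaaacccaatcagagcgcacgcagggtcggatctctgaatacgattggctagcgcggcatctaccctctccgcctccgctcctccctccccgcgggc
The NF-κB motif, searched by its name on both strands, was found in 3.9% of 32851 windows of the same length. The STAT motif TTCNNNGAA, which reads the same on both strands, was found in none of the 9 windows of the members and in 7.02% of all windows. The window of Cish, chr9:107296409-107296658 on the plus strand, lies inside the gene as the GENCODE annotation places it, from 107296026. Bases upstream of that start of Cish were not searched. These matches describe letters in the windows and say nothing of binding.

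In GRCm38 with the GENCODE annotation, Cish lies on chromosome 9 from 107296026 to 107302784, Cbl on chromosome 9 from 44142976 to 44234049 and Cblb on chromosome 16 from 52031225 to 52208048. Asb2 lies on chromosome 12 from 103321142 to 103356001 and Cyld on chromosome 8 from 88697028 to 88751945. Birc2 (chromosome 9, 7818227 to 7837064) and Birc3 (chromosome 9, 7848699 to 7873186) are neighbours on the same strand, 11634 bases apart. Exons of Cish overlap Gm17040 and Gm17041, annotated on the opposite strand and not analysed here. The counting is not stated to use strand, so reads of Cish cannot be told apart from reads of these genes.

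Over the genes analysed here the libraries held 1666637 to 2826766 counts, and 1948 to 3292 genes had a count. In lean mice the sorted populations carried the markers of their labels. Summed normalized counts of the ILC1 markers Cxcr6 and Cd200r1 were 20834 to 27521 in lean ILC1 and 69 to 135 in lean NK cells. Those of the NK cell markers Cma1 and Cx3cr1 were 8091 to 11852 in lean NK cells and 102 to 658 in lean ILC1. In obese mice the ILC1 markers summed to 7132 to 23677 in ILC1 and 240 to 728 in NK cells. The NK cell markers summed to 5983 to 7266 in obese NK cells and 467 to 3385 in obese ILC1. In obese ILC1 replicate 26, Cx3cr1 was at 3111, above every NK library, whereas Cma1 was at 274, below every NK library. The genes behind the gates on NK1.1, CD49a and CD49b were not analysed here. Lean NK replicate 27 (1948 genes with a count) and obese ILC1 replicate 25 (2014 genes) had the fewest genes with a count, and obese ILC1 replicate 26 (3292 genes) had the most. In obese ILC1 replicate 26, hepatocyte markers made up 9.85% of counts, and the summed ILC1 markers were lowest of all ILC1 libraries, at 7132. Each result was also computed without each library in turn, and such values are given beside a result where they change its call or move it most.

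**Figure D1:**
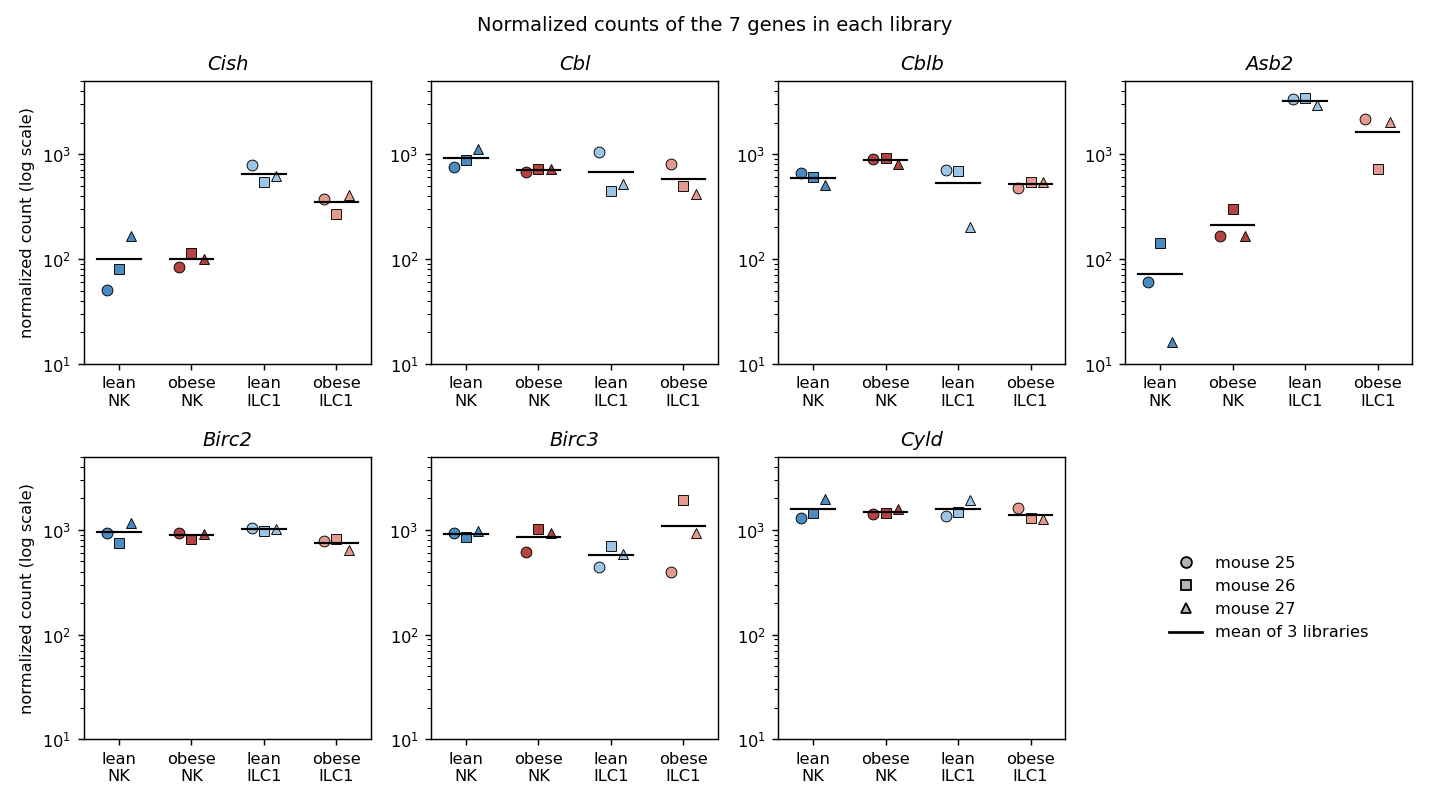
Normalized counts (log scale) of the 7 genes in the 12 libraries, 3 per group, with the symbol giving the animal's number within its diet and the bar giving the mean of a group. Asb2 and Cish sit higher in every ILC1 than in every NK library, and the groups of the other 5 genes lie close together.

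Cish, the brake on cytokine receptors, was low in NK cells. Its normalized counts in lean NK cells were 51, 81 and 167 in animals 25, 26 and 27, and in obese NK cells 83, 115 and 100. In lean ILC1 they were 786, 546 and 617, and in obese ILC1 372, 268 and 412. Every ILC1 library was above every NK library, and every obese ILC1 library was below every lean ILC1 library, whereas lean and obese NK cells overlapped. The group means were 99.7 ± 60.2 in lean and 99.3 ± 16.0 in obese NK cells, and 650 ± 123 in lean and 351 ± 74.3 in obese ILC1 (SD, n = 3 each).

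Over both diets together, Cish was higher in ILC1 by a log2 fold change of 2.25 (standard error 0.336, 95% interval 1.51 to 2.99, adjusted p = 0.00256, quasi-likelihood test of edgeR, with p-values adjusted over 2606 genes by the method of Benjamini and Hochberg). A gene was called where its adjusted p was below 0.05 and it changed more than 2-fold. By this rule 2 of the 7 genes, Cish and Asb2, were called in this comparison, both higher in ILC1, where 4.34% of all tested genes were called in either direction. With the animal as a block, since NK cells and ILC1 came from the same mice, 46 in place of 113 of the tested genes were called, and Cish was at the edge of the threshold (log2 fold change 2.31, adjusted p = 0.0499).

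In lean mice the log2 fold change of Cish was 2.73 (standard error 0.484, 95% interval 1.66 to 3.79, edgeR adjusted p = 0.0120), in a comparison that called 2.3% of tested genes. This call was lost with the animal as a block (log2 fold change 2.86, adjusted p = 0.128). It was also lost without lean NK replicate 25 (2.42, adjusted p = 0.0613), without lean NK replicate 26 (2.60, adjusted p = 0.0851) and without lean ILC1 replicate 25 (2.56, adjusted p = 0.0671). In obese mice the log2 fold change was 1.77 (standard error 0.468, 95% interval 0.74 to 2.80) and did not pass (edgeR adjusted p = 0.104), where 0.921% of tested genes were called and none of the 7. It passed without lean NK replicate 27 (1.75, adjusted p = 0.0365), which does not enter the difference but enters the shared estimate of the spread. Within animals, ILC1 held 2.33 to 15.4 times as much Cish as NK cells, with a median of 4.30.

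Between diets, the test of Cish in ILC1 gave a log2 fold change of -0.91 (standard error 0.457, 95% interval -1.92 to 0.09, edgeR adjusted p = 0.505). The lean mean was 1.85 times the obese mean. In NK cells the log2 fold change was 0.04 (standard error 0.456, adjusted p = 1), with a 95% interval of -0.96 to 1.05. Without lean NK replicate 27, the highest of the lean NK libraries for Cish, it was 0.62 (adjusted p = 1). The diet effects in the 2 cell types differed by a log2 value of -0.96 (standard error 0.645, adjusted p = 0.958), which the test did not distinguish from 0.

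Asb2, the substrate-selecting subunit, spanned the widest range of the 7 genes. Its normalized counts in lean NK cells were 60, 141 and 16 in animals 25, 26 and 27, and in obese NK cells 167, 298 and 166. In lean ILC1 they were 3335, 3459 and 2953, and in obese ILC1 2163, 723 and 2015. None of the 4 groups overlapped another, and they ranked lean NK, obese NK, obese ILC1 and lean ILC1. Means were 72.3 ± 63.4 in lean and 210 ± 75.9 in obese NK cells, and 3249 ± 264 in lean and 1634 ± 792 in obese ILC1 (SD, n = 3 each). In bulk libraries such as these, fewer cells that express a gene and less RNA per cell cannot be told apart.

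Over both diets together, Asb2 was higher in ILC1 by a log2 fold change of 4.20 (standard error 0.503, 95% interval 3.10 to 5.31, edgeR adjusted p = 0.000576). This was the 114th highest log2 fold change of the 2606 tested genes, and that of Cish the 226th highest. In lean mice it was 5.49 (standard error 0.757, 95% interval 3.82 to 7.16, adjusted p = 0.00291). Both calls held with the animal as a block (4.39, adjusted p = 0.0120, and 5.92, adjusted p = 0.0303) and without each library in turn, and without lean NK replicate 26 the lean value was 6.40 (edgeR adjusted p = 0.00437). In obese mice the log2 fold change was 2.92 (standard error 0.669, 95% interval 1.44 to 4.39) and missed the threshold (edgeR adjusted p = 0.0727). It passed without lean NK replicate 26 (2.91, adjusted p = 0.0460), without lean NK replicate 27 (2.91, adjusted p = 0.0198) and without obese ILC1 replicate 26 (3.27, adjusted p = 0.0208). With the animal as a block it did not (2.85, adjusted p = 0.310), and 0 in place of 24 tested genes were called.

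Over all 12 libraries, Asb2 and Cish were higher in every ILC1 than in every NK library, as were 3.03% of tested genes. The T cell marker list, of which all 9 genes are in the table, moved the same way in its sum but not in every gene. Its summed normalized counts were 993 to 1954 in lean NK cells, 1511 to 2159 in obese NK cells, 14903 to 17847 in lean ILC1 and 4821 to 15772 in obese ILC1, with Cd8a and Cd8b1 at 0 in every lean NK and lean ILC1 library. In lean ILC1 the largest part was Cd3g, at 12468, 12983 and 13673 normalized counts in animals 25, 26 and 27. In lean NK cells it was Cd28, at 1017, 1506 and 702, and this gene overlapped lean ILC1 (1024, 1085 and 897). The part of these transcripts in the difference of Asb2 and Cish was not tested.

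**Figure D2:**
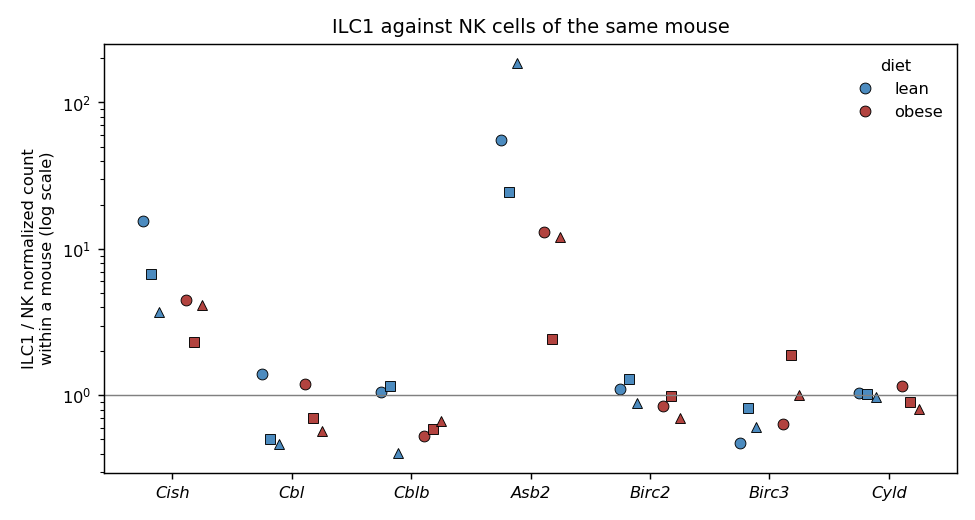
Normalized count in ILC1 divided by that in NK cells of the same animal (log scale) for the 7 genes, with 3 lean and 3 obese mice each. Asb2 (2.43 to 185) and Cish (2.33 to 15.4) lie above 1 in all 6 mice, and the other genes lie on both sides of 1.

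Within animals the excess of Asb2 in ILC1 was 24.5 to 185 times in lean and 2.43 to 13.0 times in obese mice, without overlap between the diets. The counts of obese NK cells were above and those of obese ILC1 below those of their lean counterparts. For obese against lean NK cells the log2 fold change was 1.57 (standard error 0.645, 95% interval 0.15 to 2.98). By edgeR the unadjusted p was 0.0337 and the adjusted p was 1. In ILC1 the log2 fold change was -1.01 (standard error 0.628, 95% interval -2.39 to 0.38, adjusted p = 0.605). The test of the difference between these effects gave -2.57 (standard error 0.899, 95% interval -4.55 to -0.59, unadjusted p = 0.0156, adjusted p = 0.789). Of the 2606 tested genes, 17 (0.652%) shared the pattern of no overlap with higher counts in obese NK cells and lower counts in obese ILC1.

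The lowest obese ILC1 value of Asb2 came from animal 26, the library with the highest hepatocyte markers. Without it the log2 fold change in ILC1 was -0.64 (adjusted p = 0.772), and without obese ILC1 replicate 25 it was -1.28 (adjusted p = 0.446). In NK cells it was 1.09 without the lowest lean library, replicate 27, and 2.48 without the highest, replicate 26 (adjusted p = 1 for both). In all 3 obese ILC1 libraries, the summed hepatocyte and macrophage markers exceeded those of the lean ILC1, and the summed B cell markers were far higher in animal 26. Not every gene of these lists followed its sum. In obese ILC1 of animal 25, C1qa, C1qc, Cd163, Cd5l and Csf1r of the macrophage list were at 0, whereas C1qa was at 35, 20 and 24 in lean ILC1. In obese ILC1 of animal 27, Ahsg of the hepatocyte list was at 0. The hepatocyte list (10 of 10 genes in the table) summed to 189 to 247 normalized counts in lean ILC1 and to 1241, 316611 and 287 in obese ILC1 of animals 25, 26 and 27. The Kupffer cell and macrophage list (9 of 9) summed to 178 to 449 in lean and to 1950, 47298 and 2077 in obese ILC1, and the B cell list (7 of 7) to 145 to 310 in lean and to 454, 20057 and 193 in obese ILC1. In lean ILC1, Cps1 of the hepatocyte list and Cr2 of the B cell list were at 0 in every library, and in obese ILC1 no gene of these lists was. Their part in the values of Asb2, Cish and Birc2 in obese ILC1 was not tested.

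In NK cells the ILC1 markers moved with Asb2. Cxcr6 had 100, 76 and 58 normalized counts in lean NK cells of animals 25, 26 and 27 and 202, 564 and 133 in obese NK cells, and Cd200r1 had 35, 14 and 11 in lean and 85, 164 and 107 in obese NK cells. Animal 26 was the highest obese NK library for both markers and for Asb2. As a percentage of the level in ILC1 of the same animal, Asb2 in NK cells was 1.80, 4.08 and 0.542 in lean and 7.72, 41.2 and 8.24 in obese mice. Cxcr6 was 0.474, 0.421 and 0.243 in lean and 1.15, 8.99 and 1.16 in obese mice, and Cd200r1 was 0.956, 0.505 and 0.299 in lean and 1.38, 19.1 and 2.44 in obese mice. Asb2 was thus at a higher percentage than either marker in all 6 mice. The percentages of obese animal 26 also rest on a low divisor. Its ILC1 library was the lowest of all ILC1 libraries for Asb2 (723), Cxcr6 (6272) and Cd200r1 (860). Hepatocyte markers in NK cells summed to 42 to 221 normalized counts in lean and 182 to 833 in obese mice, with Apob, Apoc3 and Cps1 at 0 in every lean library. The part of these transcripts in the Asb2 values of NK cells was not tested.

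**Figure D3:**
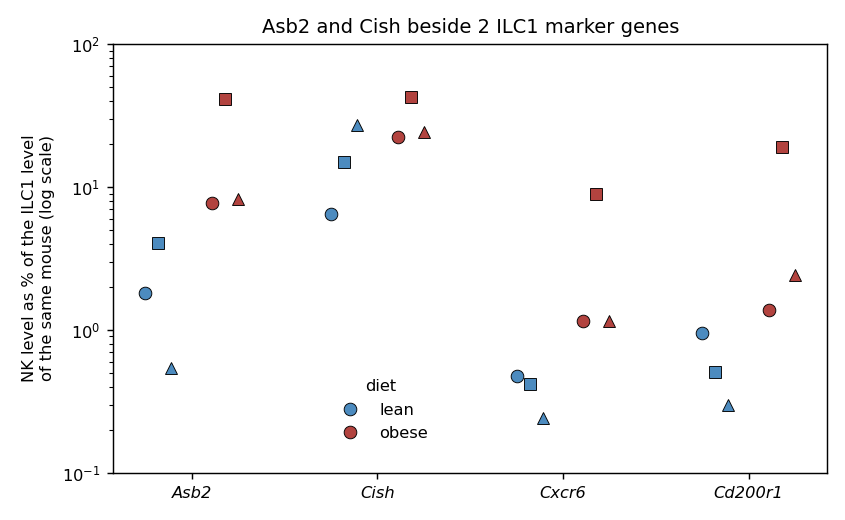
Normalized count in NK cells as a percentage of that in ILC1 of the same animal (log scale) for Asb2, Cish and the ILC1 markers Cxcr6 and Cd200r1, with 3 lean and 3 obese mice each and the symbol giving the animal's number as in the plot by library. Obese animal 26 is highest for all 4 genes, at 41.2% for Asb2 and 8.99% for Cxcr6. Its ILC1 library, the divisor, has the lowest count of all ILC1 libraries for each of the 4 genes.

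Cbl and Cblb, the RING-type ligases, did not separate the cell types over both diets. Cbl had 761, 880 and 1114 normalized counts in lean NK cells of animals 25, 26 and 27, and 674, 715 and 729 in obese NK cells. In lean ILC1 it had 1059, 445 and 521, and in obese ILC1 808, 502 and 419. All obese NK libraries were below all lean NK libraries, while the ILC1 groups overlapped each other and, within each diet, the NK cells.

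Cblb went the other way in NK cells. It had 662, 600 and 508 normalized counts in lean and 910, 922 and 806 in obese NK cells, so that every obese NK library was above every lean one, at 1.49 times the mean. In lean ILC1 it had 700, 697 and 204, the last being the lowest library of all 12, and in obese ILC1 481, 547 and 539. Obese ILC1 were below obese NK cells without overlap, at 0.594 times the mean, and in lean mice the cell types overlapped.

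None of these differences passed the test of edgeR. For Cblb the log2 fold change from lean to obese NK cells was 0.61 (standard error 0.399, 95% interval -0.27 to 1.49, adjusted p = 1). Cbl had -0.34 (standard error 0.366, 95% interval -1.15 to 0.47, adjusted p = 1). Between ILC1 and NK cells of obese mice Cblb had -0.81 (standard error 0.400, 95% interval -1.69 to 0.08, adjusted p = 0.408). In NK cells 0% and in ILC1 0% of the tested genes were called between the diets, and 0% in the test of the difference of the diet effects, so that the lack of calls is not particular to these genes. At an unadjusted p under 0.05, edgeR gave 31 of 2606 genes in NK cells, 277 in ILC1 and 155 in the test of the difference. By the rule of adjusted p and fold change, DESeq2, fitted to all 5545 genes without the filter, called 8, 77 and 21. In NK cells 3 of the 7 genes (Cbl, Cblb and Asb2) did not overlap between the diets, beside 16.2% of tested genes, and in ILC1 3 of the 7 (Cish, Asb2 and Birc2), beside 15.2%. The share of tested genes without overlap between the cell types within a diet was not computed. Such separations of Cblb, Birc2 and Birc3 are given as values only.

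The balance between the 2 ligases was also taken as the ratio of Cblb to Cbl counts within each library, which needs no scaling between libraries but is not a ratio of molecules, since the transcripts differ in length. In lean NK cells the ratio was 0.869, 0.681 and 0.456 in animals 25, 26 and 27, and in obese NK cells 1.35, 1.29 and 1.10. Every obese ratio was above every lean ratio, with a log2 difference of 0.94 or 1.92-fold (two-sided exact permutation test, p = 0.1, which is the smallest that 3 libraries against 3 allow, and 0.5 after Benjamini-Hochberg adjustment over 10 ratio tests). In ILC1 the ratio was 0.661, 1.57 and 0.391 in lean and 0.596, 1.09 and 1.29 in obese mice, which overlapped (log2 difference 0.35, exact permutation p = 0.7, adjusted p = 0.875). Between ILC1 and NK cells within the 6 mice the mean log2 difference was -0.10 (exact sign-flip permutation test, two-sided, p = 0.656, adjusted p = 0.875).

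**Figure D4:**
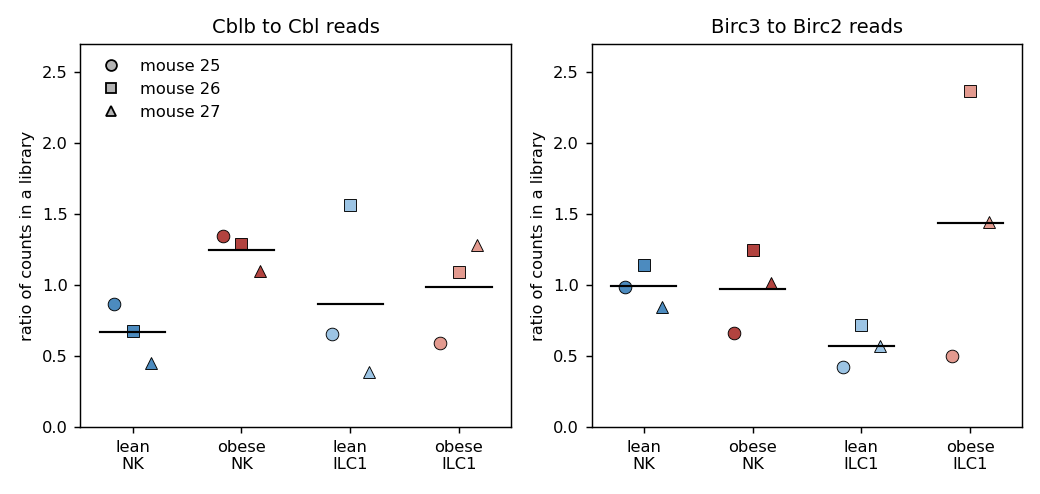
Ratio of Cblb to Cbl counts (left) and of Birc3 to Birc2 counts (right) in each library, 3 per group, with bars for group means and the symbol giving the animal's number within its diet. Cblb to Cbl is 1.10 to 1.35 in obese and 0.456 to 0.869 in lean NK cells, and Birc3 to Birc2 reaches 2.37 in obese ILC1 of animal 26.

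Birc2, Birc3 and Cyld, the genes of the TNF receptor and NF-κB branch, were expressed in all libraries. Birc2 had 935, 756 and 1153 normalized counts in lean NK cells of animals 25, 26 and 27, and 929, 821 and 919 in obese NK cells. In lean ILC1 it had 1039, 980 and 1029, and in obese ILC1 788, 818 and 649. Obese ILC1 lay below lean ILC1 and below obese NK cells without overlap, and for the NK cells no share of all tested genes was computed. The obese mean was 0.740 times the lean mean in ILC1, and the log2 fold change was -0.47 (standard error 0.207, 95% interval -0.93 to -0.02), for which edgeR gave an unadjusted p of 0.0440 and an adjusted p of 0.430.

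Birc3 had 927, 864 and 979 normalized counts in lean NK cells and 614, 1028 and 937 in obese NK cells. In lean ILC1 it had 439, 710 and 591, and in obese ILC1 394, 1939 and 936. Lean ILC1 were below lean NK cells without overlap, at 0.628 times the mean, again with no share of all tested genes computed. The obese ILC1 ranged the most widely of all groups of this gene. In lean mice the difference of ILC1 from NK cells was -0.66 on the log2 scale (standard error 0.452, 95% interval -1.65 to 0.34, edgeR adjusted p = 0.684). Between obese and lean ILC1 it was 0.85 (standard error 0.454, 95% interval -0.14 to 1.85, adjusted p = 0.535), and the highest value came from animal 26, the library with the highest hepatocyte, macrophage and B cell markers. Without that library it was 0.21 (adjusted p = 0.903), and without obese ILC1 replicate 25, the lowest, it was 1.24 (adjusted p = 0.111).

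The ratio of Birc3 to Birc2 counts was 0.991, 1.14 and 0.849 in lean NK cells and 0.422, 0.724 and 0.575 in lean ILC1 of the same animals. Each animal thus had the lower ratio in ILC1. The test compared the groups without this pairing (log2 difference -0.82, unpaired exact permutation test, two-sided, p = 0.1, adjusted p = 0.5). In obese mice the ratio was 0.662, 1.25 and 1.02 in NK cells and 0.5, 2.37 and 1.44 in ILC1, with overlap (log2 difference 0.34, unpaired exact permutation p = 0.7, adjusted p = 0.875). Without obese ILC1 replicate 26 the log2 difference was -0.15 (exact permutation p = 0.9). Over the 6 mice the mean log2 difference was -0.24 (exact sign-flip permutation p = 0.469, adjusted p = 0.875).

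Cyld was the most even of the 7 genes across groups. It had 1307, 1444 and 1992 normalized counts in lean and 1405, 1448 and 1573 in obese NK cells of animals 25, 26 and 27. In ILC1 it had 1367, 1485 and 1938 in lean and 1626, 1305 and 1268 in obese mice. All groups overlapped, and the 95% interval of the log2 difference of ILC1 from NK cells over both diets, -0.38 to 0.28, leaves no room for a doubling in either direction (estimate -0.05, standard error 0.149, edgeR adjusted p = 0.930). For Birc2 the same interval was -0.41 to 0.23, for Birc3 -0.90 to 0.50, for Cbl -0.96 to 0.19 and for Cblb -1.09 to 0.15.

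**Figure D5:**
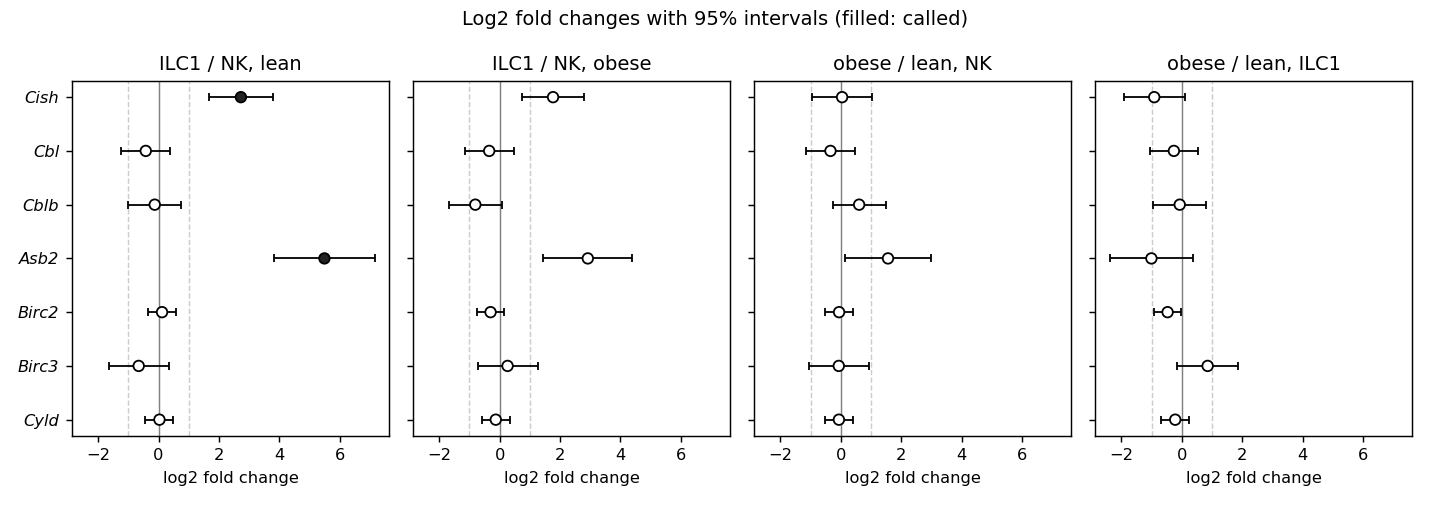
Log2 fold changes of the 7 genes with 95% intervals from edgeR in 4 comparisons, with dashed lines at a doubling in either direction and filled points for called genes. The only filled points are Asb2 (5.49) and Cish (2.73) between ILC1 and NK cells of lean mice.

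Compared per length, as normalized counts per kilobase of the longest coding transcript, the genes changed order between the cell types. In lean NK cells the order of levels was Birc3, Birc2, Cyld, Cblb, Cbl, Cish and Asb2. The libraries of Birc3 (317 ± 19.8) overlapped those of Birc2 (285 ± 59.7), and those of Birc2 overlapped those of Cyld (197 ± 45.2), as did Cblb with Cbl and Cish (35.0 ± 21.1) with Asb2 (26.9 ± 23.6) (SD, n = 3 each). In lean ILC1 the order was Asb2, Birc2, Cish, Birc3, Cyld, Cblb and Cbl. Asb2 stood alone at 1208 ± 98.0 per kilobase, above 94.2% of the 2226 tested genes with a length, and Birc2 (305 ± 9.48) and Cish (228 ± 43.3) did not overlap, whereas Cish, Birc3 and Cyld overlapped in turn, as did Cblb and Cbl. In obese ILC1 Asb2 was at 607 ± 294 per kilobase (above 85.9% of these genes) and in obese NK cells at 78.2 ± 28.2 (above 53.4%). With the length of all exons merged, Asb2 was again first in both ILC1 groups, but Birc2 preceded Birc3 in NK cells, Cish came last in lean NK cells and behind Birc3 and Cyld in lean ILC1, and Cbl and Cblb changed places in both lean groups.

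Across the 12 libraries, the profiles most like that of Asb2 were those of Camk4 and Aim1l, with root mean square differences of 0.666 and 0.733 between centred log2 CPM. For Cish they were Abcb9 (0.464) and Ada (0.491), for Cbl Ankrd44 (0.259) and Cnn2 (0.262), and for Cblb Apobr (0.246) and Coro7 (0.363). For Birc2 they were Arhgef6 (0.135) and Brd2 (0.147), for Birc3 Ahcy (0.280) and Acsl5 (0.314), and for Cyld Atp5h (0.144) and Cetn3 (0.146). The even profiles of Birc2 and Cyld had the smallest differences and that of Asb2 the largest, but such a difference depends on how far a gene itself varies. The root mean square of the centred profile itself was 0.222 for Birc2, 0.201 for Cyld and 2.44 for Asb2. The differences therefore do not rank how well the genes were matched. The libraries share the same depth and composition for every gene, and no meaning is attached to these neighbours.

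Other genes of the same pathways mostly stayed below the threshold. Of 94 listed genes, 79 were tested, and over both diets 5 were called higher and 1 lower in ILC1 by edgeR, which is 7.59% of them beside 4.34% of all tested genes. With the animal as a block, 3 of these 6 (Bcl2a1b, Bcl2a1d and Cd247) were called. Among 28 tested ubiquitin ligases, adaptors and conjugating enzymes 0 were called, with a median log2 fold change of -0.31 beside 0.04 for all tested genes. Among 11 tested deubiquitinases and COP9 signalosome subunits 0 were called (median 0.09). Of the other Asb family genes, 7 of 17 were tested and 0 were called (median -0.10), so that within this family Asb2 was the only gene called.

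Calls in the remaining lists were as follows. Of 13 genes of NF-κB and TNF receptor signalling (median 0.40), 3 were called higher in ILC1. For Bcl2a1d, of a family of survival proteins, the log2 fold change was 2.98 (standard error 0.348, edgeR adjusted p = 0.000480), and for its close relative Bcl2a1b 1.95 (standard error 0.171, edgeR adjusted p = 8.23e-05). These paralogs are nearly identical, and how reads were split between them is uncertain. Cd40lg, the ligand of CD40, was at 0 in every lean NK library and at 155 ± 52.1 normalized counts in lean and 141 ± 177 in obese ILC1 (SD, n = 3 each, edgeR adjusted p = 0.0234 over both diets and 0.0636 with the animal as a block).

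Of 9 tested STAT5-linked genes and cytokine receptor chains (median 0.54), Csf2, which encodes the cytokine GM-CSF, was called higher in ILC1 (log2 fold change 2.92, standard error 0.710, edgeR adjusted p = 0.0364, and 0.273 with the animal as a block). Ccnd3, encoding cyclin D3, was called lower in ILC1 than in NK cells of obese mice (-1.06, standard error 0.194, edgeR adjusted p = 0.0289). That call was lost with the animal as a block (edgeR adjusted p = 0.181) and with the obese libraries fitted alone (0.149). Of 11 tested substrates and partners of CBL proteins (median 0.18), Axl, a receptor tyrosine kinase, was called higher in ILC1 (5.98, standard error 0.974, edgeR adjusted p = 0.00448, and 0.0739 with the animal as a block). Its normalized counts were 170 ± 43.9 in lean ILC1 and spread widely in obese ILC1, at 743 ± 790 (SD, n = 3 each). Cd247, the zeta chain through which NK and T cell receptors signal, was called lower (-1.34, standard error 0.212, edgeR adjusted p = 0.00361). No gene of these lists was called between lean and obese mice in either cell type, or in the test of the difference of the diet effects.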

How the data were processed

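Liver NK cells and ILC1 of 6 mice, 3 per diet, were sequenced from 2 ng of RNA per library on a NextSeq. Per the submitters' processing notes, the authors used bcl2fastq 2.19, Trimmomatic 0.36.5, STAR 2.5.2b, featureCounts 1.6.0.2 and the build mm10; the annotation and strand setting are not given in the sources used here. The authors deposited whole-number counts per gene and library, without normalization, and a score (here, normalized count) that is the count over a factor per library (0.570 to 1.52 as recovered from the table), rounded by them. The table has no column that belongs to other samples, and 1 incomplete row was left out.

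Counts were tested in R 4.3.3 with edgeR 4.0.16 (filterByExpr, TMM, quasi-likelihood F test, 1 model of the 4 groups over all 12 libraries) and adjusted by Benjamini-Hochberg over the 2606 genes that passed, with the thresholds the study states for SARTools. Adjustment over the whole transcriptome could give other adjusted p-values. Standard errors are the log2 fold change over the root of F. Ratios were compared by exact permutation. No 2 libraries were identical, and pairs within groups differed by more than sampling noise. Scripts were tested on simulated data with known changes.

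All 7 genes were named, with the 2 nearest profiles of each (log2 CPM, prior count 2) and the called genes of 6 pathway lists; the members and lists were chosen with earlier results of these data known. Marker lists were those of hepatocytes, macrophages, T cells, B cells, ILC1 and NK cells. By the series' design, NK cells and ILC1 with a shared number and diet are from 1 mouse; their deviations from group means correlated between -0.0763 and 0.141. DESeq2 1.42.0, other scalings and filters, the block of animals and leaving out each library were tried as alternatives; the authors' factors in edgeR and leaving out both lean NK 27 and obese ILC1 26 were chosen after seeing the data.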

Additional observations from a re-analysis of the deposited data

Results flagged for a closer look

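Asb2 differed between the cell types in the direction of its difference between diets. Every obese NK library had a higher normalized count than every lean NK library (log2 fold change 1.57), and every obese ILC1 library had a lower one than every lean ILC1 library (-1.01). The test of the difference itself gave -2.57 with an unadjusted p of 0.0156 and an adjusted p of 0.789 in edgeR, so the difference did not pass across the 2606 genes tested. Over the alternatives it ran from -3.49 to -1.72, with an adjusted p of 0.394 or more.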

How the results depend on the processing

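Higher Asb2 in ILC1 over both diets held under all 21 alternatives (log2 fold change 3.96 to 4.65), as did that in lean mice (4.99 to 6.40) and that of Cish over both diets (2.09 to 2.61, adjusted p up to 0.0499). Over both diets, the fit of only the libraries compared repeats the main fit and could not differ. Dropping the fold change threshold keeps the main fit in every comparison and could not lose a call. Both are counted in the values that follow. Across the 7 genes, 834 values kept their direction and side of the threshold, 27 turned, 10 newly passed and 4 no longer passed; of the ratio values 74 kept and 8 turned their direction. The cause was not tested. Scaling moved the median of all genes by at most 0.0686 on the log2 scale. Genes called over both diets numbered 222 with DESeq2, 62 with at least 10 counts in every library, 46 with the replicate block of animals, 177 without both lean NK 27 and obese ILC1 26, and 63 to 161 without 1 library. In lean mice they numbered 151 with DESeq2, 21 with the block, 101 without both libraries and 29 to 102 without 1. In obese mice they numbered 154 with DESeq2, 61 with at least 10 counts, 0 with only the libraries compared, 0 with the block, 107 without both libraries and 5 to 66 without 1. Between diets DESeq2 called 8 genes in NK cells, 77 in ILC1 and 21 for the difference; a replicate block of the shared numbers, which join different animals and whose libraries correlated between -0.0145 and 0.0768, called 2 in ILC1, leaving out both libraries 5, and leaving out 1 library 0 to 1, 0 to 6 and 0 to 1.

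In obese mice the differences of Cish and Asb2 passed with DESeq2 (adjusted p = 0.00149 and 0.00106), with at least 10 counts in every library (0.0253 and 0.0162) and without both libraries (0.0118 and 0.00103). Other values turned in sign without passing the test. Between diets, Cish in NK cells was -0.00117 with the authors' factors and ran from -0.27 to 0.62 without 1 library, and Cblb in ILC1 was 0.12 with the replicate block of shared numbers and ran from -0.47 to 0.18. Without both libraries, Birc2 in NK cells between diets was 0.090, Birc3 between the cell types of obese mice -0.40, Cyld between the cell types 0.064 and Cyld in NK cells between diets 0.12. Without 1 library, Cbl between diets ran from -0.61 to 0.22 in ILC1 and from -0.27 to 0.56 for the difference; Cblb between the cell types of lean mice from -0.40 to 0.26; Birc2 from -0.022 to 0.26 between the cell types of lean mice and from -0.19 to 0.099 between diets in NK cells; Birc3 from -0.40 to 0.66 between the cell types of obese mice and from -0.21 to 0.12 between diets in NK cells; and Cyld from -0.13 to 0.034 between the cell types, from -0.12 to 0.21 in lean mice and from -0.18 to 0.13 between diets in NK cells. The log2 ratio of Cblb to Cbl ran from -0.35 to 0.65 between the cell types of lean mice, from -0.11 to 0.89 between diets in ILC1 and from -0.36 to 0.11 within mice, and that of Birc3 to Birc2 from -0.15 to 0.97 between the cell types of obese mice and from -0.27 to 0.19 between diets in NK cells. The totals cover part of each library's genes and limit the depth, and 3 mice per group limit the tests.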
